A study of Mus musculus with 11 samples.

Results

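The vascular basement membrane is the thin sheet of extracellular matrix on which endothelial cells sit. The genes of that sheet other than those of type IV collagen were examined in CD31hi EMCNhi bone marrow endothelium, sorted for strong staining of CD31 and endomucin (EMCN), the surface signature by which type H capillaries are recognised in healthy bone. The set was taken by gene name and comprised 10 of the 27179 rows of the gene count table: the laminin chains *Lama4*, *Lama5*, *Lamb1*, *Lamb2* and *Lamc1*, the nidogens *Nid1* and *Nid2*, *Hspg2* (perlecan), and *Col18a1* and *Col15a1*, collagens that carry an endostatin domain. All 10 passed the filter on low counts, which left 11948 genes for testing.

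Laminins are trimers of an alpha, a beta and a gamma chain that assemble into a network on the cell surface. In blood vessels the alpha chains are mainly laminin alpha 4, present in nearly all vessels, and laminin alpha 5, and both pair with a beta chain and with laminin gamma 1. Nidogens bind the gamma 1 chain and link the laminin network to the type IV collagen network, and perlecan is a large heparan sulphate proteoglycan that binds both and holds growth factors. Collagen XVIII is itself a proteoglycan of vascular and epithelial basement membranes, collagen XV lies at the outer face of the membrane, and cleavage of the C-terminal ends of both collagens releases endostatin and a related fragment.

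The cells came from BALB/c mice. Control libraries (n = 2, from 2 mouse pools) were made from healthy animals of matched age. Tumour-burdened animals carried 4T1.2 cells, a BALB/c mammary tumour line with a red fluorescent reporter that forms bone metastases. Their marrow was dissected by fluorescence into tumour-infiltrated areas (met, n = 3 libraries) and neighbouring areas free of tumour cells (non-met, n = 6 libraries), so that non-met marrow is marrow of a tumour-bearing animal and not of a healthy one. Each pool held 1 to 4 mice. Non-met 1 and 5 were from tumour-burdened pool 1. Met 1 shared pool 2 with non-met 2 and 6, met 2 shared pool 3 with non-met 3, and met 3 shared pool 4 with non-met 4. Only 4 pools underlie the 6 non-met libraries, and P values measure a spread between libraries, not between mice. In voomLmFit, the study's test, libraries are weighted unequally, and for *Hspg2* a single library carries most of the weight of each group. Cells positive for the blood cell markers CD45 and Ter-119 were gated out of the sort.

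Library totals ranged from 733342 reads (non-met 4) to 19539761 (control 1). The 18 endothelial marker genes were all detected, and their summed level was 10835 to 16099 CPM (reads relative to the TMM-scaled library total) in control, 12222 to 20443 in non-met and 18258 to 20772 in met. The 22 osteolineage, stromal and mural markers, of cells that also make basement membrane components, summed to 4341 and 11158 CPM in control, 1411 to 5047 in non-met and 578 to 3728 in met, with 20, 19 and 19 of them above 3 reads in at least 1 library of the group. *Bglap*, the osteocalcin gene of mature osteoblasts, was the 1 gene of the 22 at 3 reads or fewer in every library. The 13 granulocyte markers summed to 80.2 and 359 CPM in control, 397 to 5207 in non-met and 47.3 to 204 in met, with *Ly6g* the 1 gene of the 13 at 3 reads or fewer throughout. The 12 epithelial and tumour markers summed to 0.929 and 34.3, 1.62 to 147 and 11.7 to 119 CPM. In these bulk libraries fewer cells of a type and less RNA per cell cannot be told apart, and the part of these marker differences in the results was not tested.

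The promoters of the genes on which the comparisons turn are printed here because they show how differently built the starts of these matrix genes are. RefSeq (GRCm38.p6) gave windows of 300 bases, 250 before and 50 after a transcription start, for 7 of the 10 genes. *Lama4*, *Lamc1* and *Nid2* were not listed. *Col18a1* had windows at an upstream and a downstream start. The gene is known to make forms of collagen XVIII from separate promoters, which the counts per gene do not separate. Sequences run 5′ to 3′ on the strand of the gene. Capitals mark the GC box, the letters GGGCGG or their reverse complement CCGCCC, to which Sp family factors are known to bind.
Hspg2, chr4:137468553-137468852, plus strand: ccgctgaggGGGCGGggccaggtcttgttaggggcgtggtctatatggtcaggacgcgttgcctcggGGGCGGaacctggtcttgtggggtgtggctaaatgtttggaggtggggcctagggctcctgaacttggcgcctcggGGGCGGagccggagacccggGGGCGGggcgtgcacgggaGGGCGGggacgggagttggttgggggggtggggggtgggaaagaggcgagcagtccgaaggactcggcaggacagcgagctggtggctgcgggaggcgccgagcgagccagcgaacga
Col18a1 upstream start, chr10:77166481-77166780, minus strand: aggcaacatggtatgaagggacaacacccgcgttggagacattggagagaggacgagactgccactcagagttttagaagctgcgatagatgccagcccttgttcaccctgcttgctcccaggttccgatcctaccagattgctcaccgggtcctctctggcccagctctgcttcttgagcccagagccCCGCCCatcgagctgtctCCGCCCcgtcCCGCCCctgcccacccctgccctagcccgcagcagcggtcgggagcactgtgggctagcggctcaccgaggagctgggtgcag
Col18a1 downstream start, chr10:77113656-77113955, minus strand: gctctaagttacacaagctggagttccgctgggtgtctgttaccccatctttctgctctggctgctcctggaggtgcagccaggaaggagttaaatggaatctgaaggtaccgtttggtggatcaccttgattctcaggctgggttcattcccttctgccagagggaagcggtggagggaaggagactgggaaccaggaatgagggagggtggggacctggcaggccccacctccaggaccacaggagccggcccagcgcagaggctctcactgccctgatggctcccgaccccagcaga
Col15a1, chr4:47207762-47208061, plus strand: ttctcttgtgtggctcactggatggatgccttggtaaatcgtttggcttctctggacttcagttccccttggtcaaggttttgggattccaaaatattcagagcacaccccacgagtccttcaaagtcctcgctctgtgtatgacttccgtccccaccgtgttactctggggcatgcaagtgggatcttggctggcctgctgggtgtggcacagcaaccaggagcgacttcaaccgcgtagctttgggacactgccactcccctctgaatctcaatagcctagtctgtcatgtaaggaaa

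The *Hspg2* window held 5 GC boxes, with first bases at -241, -183, -107, -87 and -68 from the start. The upstream *Col18a1* window held 3 of them, at -61, -43 and -33, and the downstream one held none. *Col15a1* held none either. Among the windows not printed, *Lama5* held 4, *Lamb1* 2, *Nid1* 1 and *Lamb2* 0. A GC box was present in 35.7% of all 32851 promoter windows of that length, searched on both strands. The GC content was 70.3% for *Hspg2*, 63.3% and 59.7% for the upstream and downstream *Col18a1* windows and 52.3% for *Col15a1*, against a median of 52.7% over all windows. A CCAAT box (CCAAT) lay in the windows of *Lamb1*, *Nid1* and upstream *Col18a1*, as it did in 37.4% of all windows. The letters of an ETS core (CCGGAAG, 8.86% of all windows), AP-1 (TGANTCA, 7.81%), an E-box (CACGTG, 7.15%), a TATA box (TATAAA, 13.6%) and a hypoxia core (ACGTG, 19.6%, which also lies inside the E-box) were found in none of the 8 windows. These are matches of letters and say nothing on factor binding.

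Perlecan was the most abundant of the 10 genes in counts. *Hspg2* (Entrez 15530, chr4:137468751-137570630, plus strand) stood at 2459 and 1104 CPM in control 1 and 2. Non-met 1 to 6 stood at 1363, 3215, 3738, 2546, 924 and 2260 CPM, with a median of 2403. The lowest, non-met 5 and non-met 1, were both from pool 1, which gave no met library. Met 1, 2 and 3 stood at 3748, 4228 and 4089 CPM. Met libraries thus clustered tightly above a scattered non-met group, although the margin between the lowest met and the highest non-met library was small. The mean log2 level was 11.97 ± 0.09 in met (SD, n = 3), 11.04 ± 0.77 in non-met (n = 6) and 10.69 ± 0.82 in control (n = 2).

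*Col18a1* (Entrez 12822, chr10:77052178-77166530, minus strand) showed the widest range between groups. It was at 167 and 32.0 CPM in the control libraries, the latter from 181 reads. Non-met 1 to 6 stood at 505, 868, 877, 210, 270 and 708 CPM. The met libraries stood at 1284, 1202 and 1546 CPM. The 3 groups formed separate ranges in the order control, non-met, met, and the control libraries differed from one another more than the met libraries did. The mean log2 level was 6.20 ± 1.67 in control (SD, n = 2), 8.96 ± 0.88 in non-met (n = 6) and 10.38 ± 0.19 in met (n = 3).

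*Col15a1* (Entrez 12819, chr4:47207655-47313167, plus strand), the other endostatin collagen, stood at 167 and 72.7 CPM in control. Non-met 1 to 6 stood at 314, 605, 619, 92.3, 119 and 226 CPM, and met 1 to 3 at 523, 508 and 754. Met lay above both controls, but non-met 2 and 3 reached the met range. Of its exons 14 bases overlap those of an antisense gene, *Gm12426*.

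*Nid1* (Entrez 18073, chr13:13437602-13512275, plus strand), the main vascular nidogen, stood at 1422 and 594 CPM in control, 587 to 1906 in non-met with a median of 881, and 793, 1415 and 1769 in met. These ranges overlapped throughout. *Nid2* (Entrez 18074, chr14:19751257-19811787, plus strand) stood at 225 and 58.7 CPM in control. Non-met 1 to 6 stood at 136, 449, 204, 253, 267 and 304 CPM, and met 1 to 3 at 589, 698 and 527. All met libraries therefore lay above all others for *Nid2*. The strand of counting is not stated, and exons of *Nid2* share 437 bases with *Rtraf* on the opposite strand, and those of *Nid1* share 143 bases with the antisense *Gm48682*.

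Of the laminin alpha chains, *Lama4* (Entrez 16775, chr10:38965515-39110188, plus strand) stood at 295 and 186 CPM in control. Non-met 1 to 6 stood at 129, 233, 158, 92.3, 203 and 391 CPM, and met 1 to 3 at 482, 362 and 468. Only non-met 6 reached into the met range. *Lama5* (Entrez 16776, chr2:180176373-180225904, minus strand) stood at 407 and 256 CPM in control, 207 to 782 in non-met with a median of 423, and 306, 634 and 646 in met, and the groups overlapped.

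Of the beta and gamma chains, *Lamb1* (Entrez 16777, chr12:31265146-31329644, plus strand) stood at 350 and 205 CPM in control, 30.8 to 510 in non-met with a median of 329, and 841, 568 and 365 in met. Its lowest non-met value came from 17 reads in non-met 4, the shallowest library. *Lamb2* (Entrez 16779, chr9:108479847-108490530, plus strand) stood at 252 and 250 CPM in control and at 296, 204 and 372 in met. Its non-met values spread widely, at 364, 130, 242, 68.8, 49.3 and 27.5 CPM in non-met 1 to 6, the last from 31 reads. *Lamc1* (Entrez 226519, chr1:153218922-153332786, minus strand), the shared gamma chain, stood at 471 and 336 CPM in control, 247 to 808 in non-met with a median of 329, and 1039, 505 and 910 in met. For the beta and gamma chains non-met libraries reached the met range, with 2 non-met values above the lowest met value for each of these 3 genes.

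**Figure D1:**
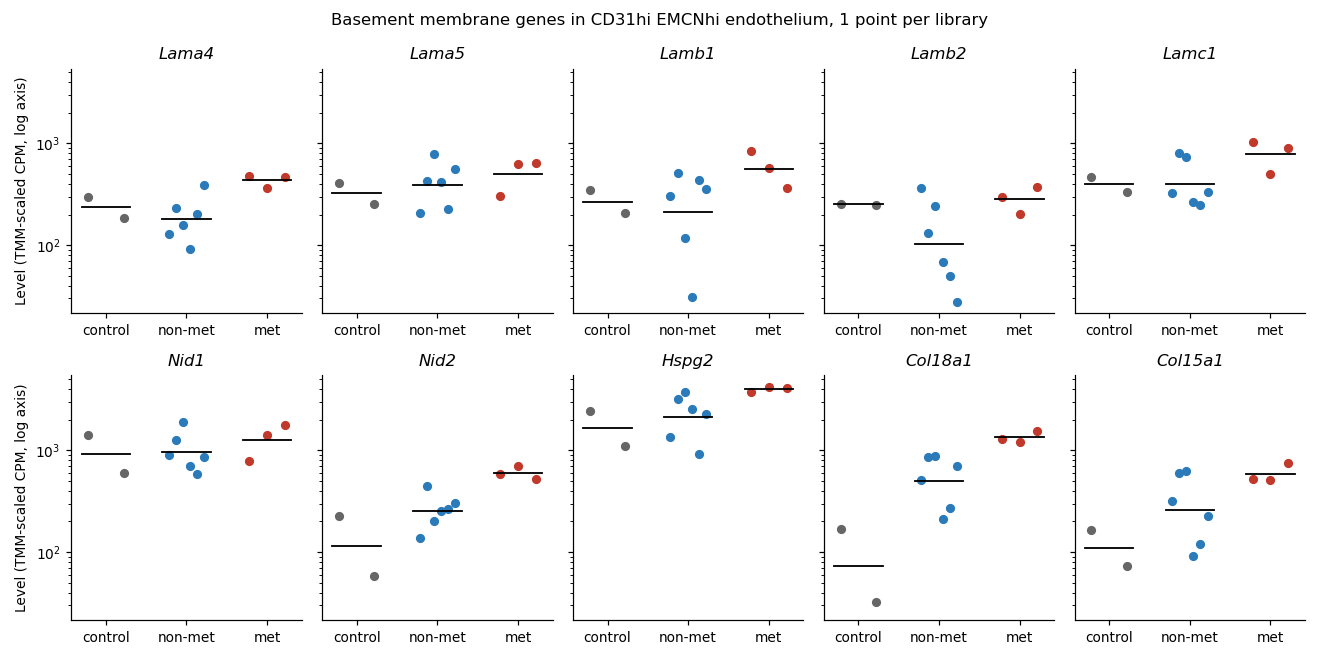
Level of each of the 10 genes in every library (y axis, TMM-scaled CPM on a log axis; x axis, group; points are libraries, bars are means of log2 values). Points of met lie above all non-met points for *Nid2*, *Hspg2* and *Col18a1*, and *Lamb1* and *Lamb2* scatter most widely in non-met.

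In the comparison of met with non-met marrow, which asks how the endothelium of infiltrated areas differs from that of tumour-free areas in tumour-burdened bone, all 10 genes had a higher fitted level in met, against 51.8% of all genes tested. *Hspg2* rose by a fitted 0.63 on the log2 scale (SE 0.12, voomLmFit adjusted P = 0.0119, 3 met and 6 non-met libraries). It was the 1 member called of 10, where 0.285% of all genes were called higher in met. *Col18a1* was nearest to it with 1.16 (SE 0.28, adjusted P = 0.0669, voomLmFit). At an unadjusted P under 0.05 there were 5 genes (*Lama4*, *Nid1*, *Nid2*, *Hspg2* and *Col18a1*), all higher, against 5.03% of all genes. The median fitted fold change over the 10 was 0.74, and over all genes 0.08. The share of mitochondrial reads was 6.72% to 17.8% in non-met and 4.33% to 9.56% in met (5.40% and 6.20% in control), and rows left out of the analysis held 3.38% to 15.8% of the counts in non-met and 2.91% to 3.46% in met (1.95% and 2.87% in control). Without non-met 1 and 4, the libraries with most counts in such rows, *Hspg2* was at 0.37 (adjusted P = 0.146, voomLmFit), 0 of the 10 genes were called and their median was 0.47. Non-met 1 and 4 were chosen after seeing the data, and without non-met 1 alone, of pool 1, *Hspg2* was at 0.36. Read quality and mouse pool cannot be told apart here, and the part of read quality in the differences was not tested.

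Libraries of met and non-met did not overlap for 3 of the 10 genes, *Nid2*, *Hspg2* and *Col18a1*, all higher in met, against 1.54% of all genes. The exact two-sided permutation test gave P = 0.0119 for *Nid2*, the smallest it can give with 3 and 6 libraries, P = 0.0357 for *Col18a1*, P = 0.0476 for *Lama4* and P = 0.0714 for *Hspg2*. After adjustment over all genes these were 1.0. In linear terms the means of log2 levels of *Nid2* differed 2.38-fold, those of *Col18a1* 2.68-fold and those of *Hspg2* 1.91-fold. *Lama5* (1.28-fold) and *Nid1* (1.31-fold) showed the smallest differences, with a fitted log2 fold change of 0.68 (SE 0.34) and 0.54 (SE 0.24). Leaving out 1 library put *Lama5* between 0.35 (without non-met 1) and 0.89, and *Nid1* between 0.11 (without met 3) and 0.73.

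The call of *Hspg2* depends on the model. The edgeR quasi-likelihood test, DESeq2 and limma-trend each called 0 of the 10 genes, where they called 0.0251%, 0.176% and 0.0% of all genes higher in met. At an unadjusted P under 0.05 they had 3, 1 and 5 of the 10, all higher, against 3.06%, 1.72% and 2.95% of all genes. The median over the 10 genes was 0.92, 0.81 and 1.22 under these tests, and over all genes -0.10, -0.26 and 0.26. They gave *Hspg2* log2 fold changes of 0.78, 0.65 and 0.93. With the mouse pool as a fixed block, a fit that leaves out the controls and tested 9436 genes, *Hspg2* was at 0.23 with an adjusted P = 1.0 (voomLmFit), none of the 10 genes was called (0.0424% of those tested were called higher in met), 8 of them were above 0, and *Lama5* (-0.22) and *Nid1* (-0.30) were below. In that fit 24 of the 9436 genes were called lower in met. The median was 0.45 over the 10 genes and -0.13 over all genes. In the weighted model a single library carried most of the *Hspg2* estimate in each group, non-met 2 with 77.4% of the non-met weight, met 2 with 87.0% of the met weight and control 1 with 100% of the control weight. Without non-met 2 the *Hspg2* fold change was 1.43 (adjusted P = 4.4e-05, voomLmFit), and without non-met 1 it was 0.36 (adjusted P = 0.0291).

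Within the pools that gave both areas, the met library stood above the mean of the non-met libraries for 8 of 10 genes in pool 2 (40.0% of all genes), 5 of 10 in pool 3 (45.0%) and 10 of 10 in pool 4 (52.2%). The genes higher in met in all 3 pools were *Lama4*, *Lamb1*, *Nid2*, *Hspg2* and *Col18a1*, 5 of 10 against 10.6% of all genes. For *Hspg2* the log2 differences were 0.48, 0.18 and 0.68 in pools 2, 3 and 4, for *Nid2* 0.67, 1.77 and 1.06, and for *Col18a1* 0.71, 0.46 and 2.88. *Lama5* was lower in met in pools 2 and 3, at -0.67 and -0.30, and so was *Nid1*, at -0.40 and -0.43. The difference was highest in pool 4 for every gene but *Nid2*, counting its sign, and its non-met library is the shallowest of the series. For scale, both non-met libraries of pool 1 differed by a median of 0.63 over the 10 genes and those of pool 2 by 0.56, with *Lamb2* the widest at 2.88 and 2.23. Between those duplicate areas *Hspg2* differed by -0.56 and -0.51 (non-met 5 minus 1, non-met 6 minus 2), so that its met differences in pools 2 and 3 were no wider than this gap. For *Col18a1* the gaps were -0.90 and -0.29, and for *Nid2* 0.97 and -0.56.

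**Figure D2:**
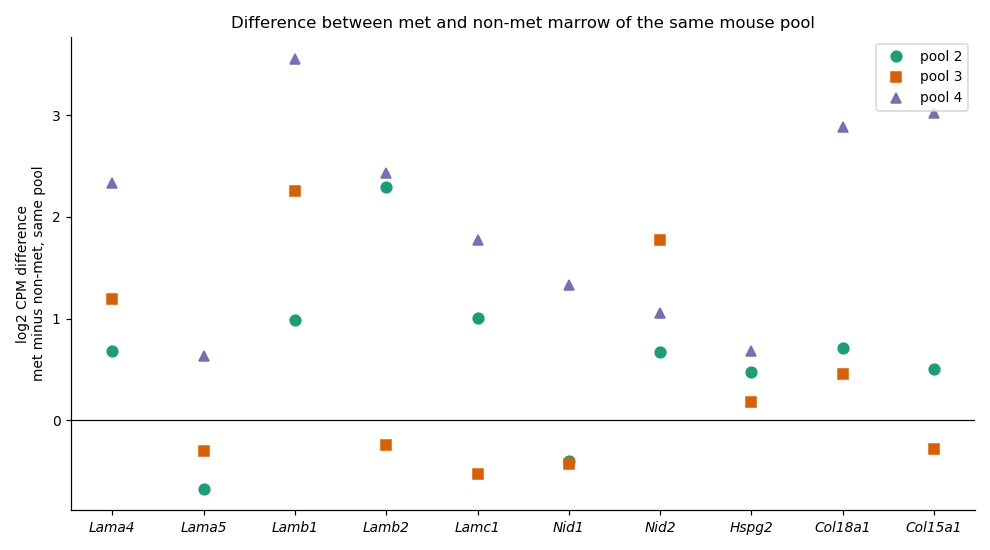
Difference in log2 CPM between met and non-met marrow of the same mouse pool (y axis) for each gene (x axis), with 1 point per pool. *Lama4*, *Lamb1*, *Nid2*, *Hspg2* and *Col18a1* lie above 0 in all 3 pools, and *Lama5* and *Nid1* only in pool 4.

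Against control marrow, the endothelium of met areas had 10 of 10 fitted fold changes above 0 (48.0% of all genes). *Col18a1* rose by a fitted 4.27 on the log2 scale (SE 1.07, voomLmFit adjusted P = 0.0487, 3 met and 2 control libraries), an 18.2-fold difference between the means of log2 levels. *Hspg2* rose by 0.78 (SE 0.02, adjusted P = 2.2e-21, voomLmFit), a fit in which control 1 carried 100% of the control weight. This SE leaves out the gap between the 2 controls, which stood at 11.26 and 10.11 log2 CPM. Without such weights limma-trend gave 1.29 (SE 0.37, adjusted P = 0.416). *Col18a1* and *Hspg2* were the 2 of 10 called by voomLmFit, where 0.686% of all genes were called higher in met. *Col15a1*, at 2.48 (SE 0.63, adjusted P = 0.0532, voomLmFit), *Lamc1*, at 0.82 (SE 0.23, adjusted P = 0.0756), and *Nid2*, at 2.19 (SE 0.65, adjusted P = 0.0927), followed. At an unadjusted P under 0.05 there were 8 genes, all higher, against 6.14% of all genes. Libraries did not overlap for 7 of the 10 genes, *Lama4*, *Lamb1*, *Lamc1*, *Nid2*, *Hspg2*, *Col18a1* and *Col15a1*, all higher in met, against 8.43% of all genes. With 2 control libraries P = 0.1 is the smallest value of the exact permutation test, which *Lama4*, *Nid2*, *Hspg2*, *Col18a1* and *Col15a1* reached.

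*Col18a1* was the 1 gene of the 10 that the edgeR quasi-likelihood test (3.76, adjusted P = 0.000701), DESeq2 (3.74, adjusted P = 2.9e-06) and limma-trend (4.18, adjusted P = 0.0022) also called, where these tests called 0.0586%, 1.15% and 0.0586% of all genes higher in met. Without control 1 its fold change was 5.60 with an adjusted P = 0.379, and without control 2 it was 3.21 with an adjusted P = 1.2e-07 (voomLmFit). *Hspg2* was called by none of those 3 tests, and not without control 1 (1.96, adjusted P = 0.535) or without control 2 (0.81, adjusted P = 0.400, voomLmFit). The summed stromal and mural markers had medians of 7749, 1628 and 1353 CPM in control, non-met and met. Their sums overlapped between non-met (1411 to 5047 CPM) and met (578 to 3728 CPM). The part of these cells in the *Col18a1* difference was not tested.

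Non-met marrow was compared with control marrow to see what tumour burden goes with at a distance from tumour cells. voomLmFit called 0 of the 10 genes (0.184% of all genes were called higher), with 2 at an unadjusted P under 0.05 and higher in non-met, *Col18a1* and *Col15a1*, against 5.32% of all genes. Fitted values were above 0 for 6 of the 10 (44.1% of all genes). *Col18a1* had a fitted value of 3.11 (SE 1.10, adjusted P = 0.154), and the edgeR quasi-likelihood test (2.53, adjusted P = 0.0486) and DESeq2 (2.63, adjusted P = 0.000316) called it, the 1 gene of the 10 they called, while limma-trend (2.76, adjusted P = 0.0897) called none. Of all genes these tests called 0.0921%, 2.19% and 0.0502% higher in non-met, and the median over all genes was 0.14, 0.22 and -0.79. For *Col18a1* every non-met value exceeded both control values, the 1 such gene of 10 against 1.26% of all genes (exact two-sided permutation P = 0.0357, the smallest possible with 2 and 6 libraries, adjusted over all genes 0.835). *Col15a1* stood at 1.68 (SE 0.73) and *Nid2* at 1.05 (SE 0.73). Without control 1 and without control 2, *Col18a1* was at 4.36 and 1.99, *Col15a1* at 2.36 and 1.17, and *Nid2* at 2.14 and 0.20. The laminin chains lay between -0.92 (*Lamb2*) and 0.23 (*Lamc1*), and *Nid1* was at -0.27 and *Hspg2* at 0.15. Neither sign of these last 2 held, with *Nid1* at 0.96 without control 1 and *Hspg2* at -0.65 without non-met 2. *Lamb2* was at -1.39 without non-met 1 and at -0.57 without non-met 6, and *Lama4*, at -0.48, was at -0.01 without control 1. The median over the 10 genes was 0.10, and over all genes -0.33. All 3 comparisons share libraries, and the last 2 share both controls.

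**Figure D3:**
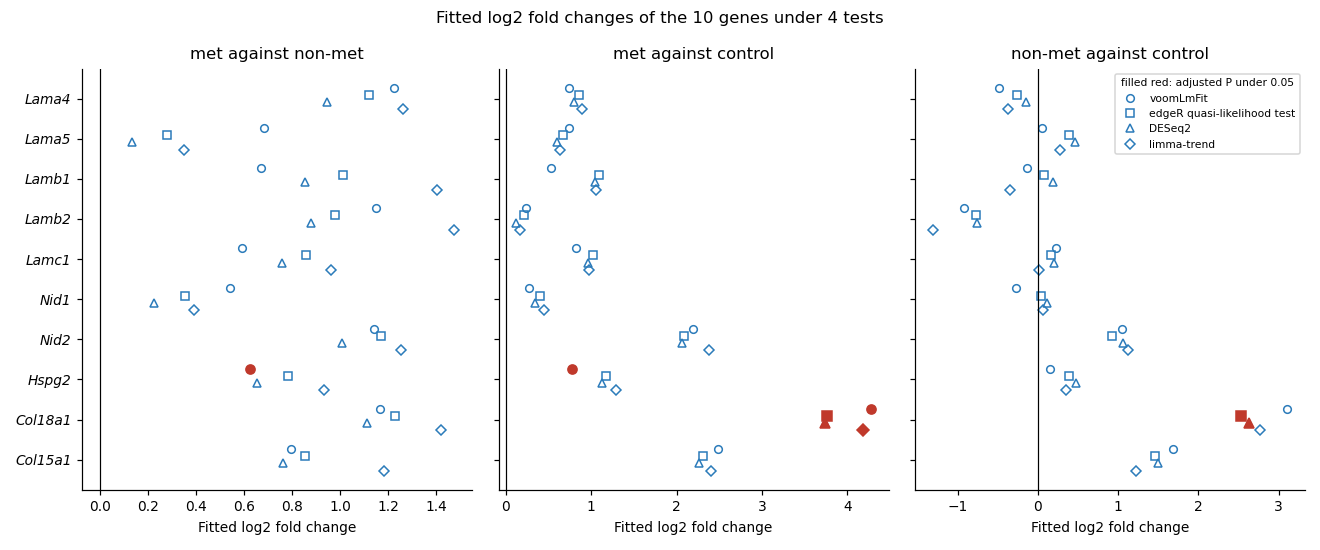
Fitted log2 fold change (x axis) of each gene (y axis) in the 3 comparisons under 4 tests, with filled red symbols where the adjusted P is under 0.05. *Col18a1* is filled for all 4 tests in met against control, and *Hspg2* only for voomLmFit.

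Per length, in RPKM (CPM per kilobase of exon), the order of the 10 genes by mean log2 level differed between groups. In control, *Nid1* led at 167 ± 96.8 RPKM (SD, n = 2), followed by *Hspg2* at 126 ± 67.6, and *Col18a1* came last at 17.2 ± 16.5. In non-met, *Nid1* (172 ± 80.1, n = 6) and *Hspg2* (165 ± 75.5) could not be separated, with 3 of 6 libraries in each order, and *Col18a1* came next at 98.9 ± 50.4, below *Hspg2* and above *Lamc1* in 6 of 6 libraries. In met, *Hspg2* led at 284 ± 17.4 (n = 3), *Col18a1* followed at 232 ± 31.1 and *Nid1* at 219 ± 81.7, and these last 2 did not differ beyond their spread. In met 3 *Nid1* stood slightly above *Hspg2*, at 293 against 288 RPKM. *Nid2*, *Col15a1*, *Lamc1* and *Lamb1* formed a middle group at 102 to 124 RPKM in met whose neighbours overlapped, and *Lama4* (72.3 ± 10.9), *Lamb2* (51.7, from 36.3 to 66.2) and *Lama5* (46.4 ± 16.9) were lowest.

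Ratios of related genes within a library do not depend on library scaling. The log2 ratio of *Nid2* to *Nid1* per length was -2.35 and -3.02 in control, -2.92 to -0.83 in non-met with a median of -1.20, and -0.12, -0.71 and -1.44 in met. *Nid2* was below *Nid1* in every library, by a ratio of 0.155 in control, 0.326 in non-met and 0.592 in met between geometric means. The log2 ratio of *Col18a1* to *Col15a1* was -0.12 and -1.30 in control and above 0 in all 6 non-met (0.38 to 1.53) and all 3 met libraries (1.17, 1.12 and 0.91), so that tumour-burdened and control libraries did not overlap. Against the type IV collagen gene *Col4a1*, *Col18a1* had a log2 ratio of -5.31 ± 0.84 in control (SD, n = 2), -3.29 ± 0.65 in non-met (n = 6) and -2.72 ± 0.19 in met (n = 3). The alpha chain ratio *Lama4* to *Lama5* was 0.45 in both controls, -1.39 to 0.76 in non-met and 0.11 to 1.57 in met, and the beta chain ratio *Lamb1* to *Lamb2* ran from -1.19 to 3.63 in non-met, a range that held all other libraries.

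**Figure D4:**
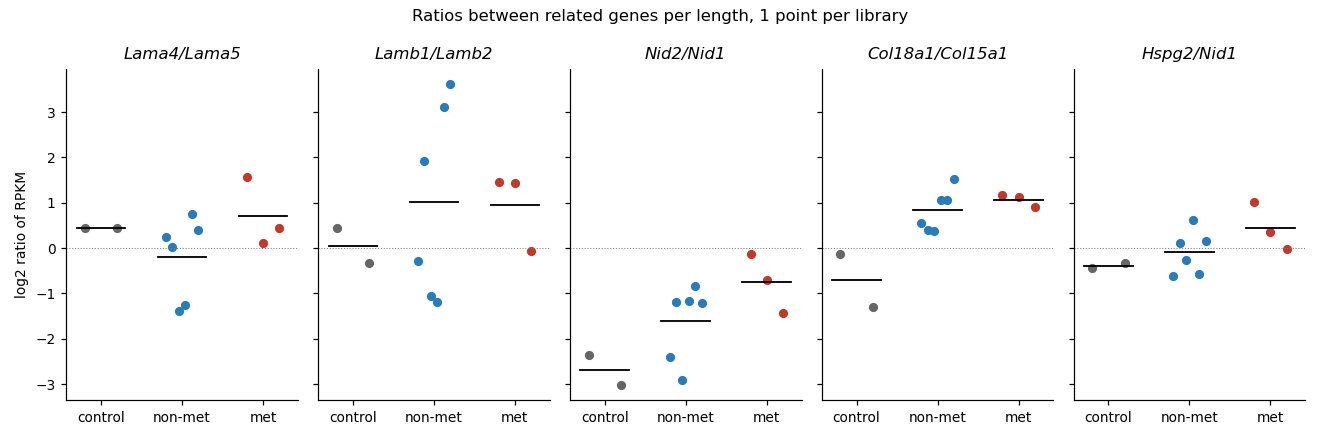
Log2 ratio of RPKM between related genes (y axis) by group (x axis), with 1 point per library and bars for means. For *Col18a1* to *Col15a1* both controls lie below 0 and all tumour-burdened libraries above it, and for *Nid2* to *Nid1* every library lies below 0.

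Over the 45 pairs of genes the Pearson r of log2 CPM across 11 libraries had a median of 0.49 and ranged from -0.14 to 0.90, with 42 pairs above 0 and the highest for *Col18a1* with *Col15a1*. *Nid2* with *Col18a1* reached 0.84, *Lama5* with *Hspg2* 0.80 and *Lama5* with *Nid1* 0.78. These points share library depth and group, so they describe the libraries only. The genes outside the lists most like the mean of the 10, among 2313 candidates, were *Ucp2* (r = 0.92), *Inhbb* (0.86), *Morf4l1b* (0.86), *Cd34* (0.85) and *Acadl* (0.85), over 11 libraries. *Cd34*, a surface sialomucin of endothelium and progenitors, averaged 8.06, 9.13 and 10.44 log2 CPM in control, non-met and met.

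Of 33 tested among 39 further basement membrane genes, 2 were called higher in met than in non-met (0.285% of all genes) and 0 lower (0.142%), *Col4a1* (0.81, SE 0.07, adjusted P = 6.2e-08, voomLmFit) and *Col4a2* (0.90, SE 0.17, adjusted P = 0.0110), the chains of the main type IV collagen. The study had picked this pair from the same libraries, so they are not independent of it. The edgeR quasi-likelihood test (0.82 and 0.90) and the fixed pool block (0.35 and 0.39, 23 genes tested) also called this pair higher in met. DESeq2 called neither, and called *Col4a4*, a type IV collagen chain, and *Dcn*, the proteoglycan decorin, lower (303 of all 11948 genes were). Both calls set little or no signal in met against a wide non-met spread. *Col4a4* was at 0.44 CPM or less in met, and in non-met had a median of 1.06 and a maximum of 189. No met library held a read of *Dcn*, which averaged 3.30 ± 3.61 log2 CPM in non-met (SD, n = 6). No sample weights gave 1 call, and limma-trend, RLE scaling and no low-count filter gave 0. Leaving out 1 library gave 0 to 2, with 0 without met 3. Fitted values were above 0 for 16 of the 33, against 51.8% of all genes. The list's median was -0.10, and that of all genes 0.08. Against control, voomLmFit called 3 of these 33 higher in met (0.686% of all genes), *Col4a1* (1.81, SE 0.36, adjusted P = 0.00595), *Col4a2* (1.21, SE 0.18, adjusted P = 0.000237) and *Sparc*, a collagen-binding matrix protein (0.07, SE 0.01, adjusted P = 0.000571, with unweighted means of 11.22 log2 CPM in met and 10.59 in control), and 1 higher in non-met, *Col4a2* (0.31, SE 0.06, adjusted P = 0.00632). In these comparisons the edgeR quasi-likelihood test and limma-trend each called 2 (*Col4a1* and *Col4a2*) and 0. DESeq2 called *Col4a1*, *Col4a2* and *Col4a4* higher in met, and *Col4a4* and *Fn1*, fibronectin, higher in non-met. *Col4a4* had no reads in either control, so its call in met rests on at most 0.44 CPM. Of 20 receptor genes tested, 1 was called higher in met than in non-met, *Mcam* (1.10, SE 0.25, adjusted P = 0.0429), an adhesion molecule that binds laminin alpha 4 and that is also among the endothelial markers. The integrin subunits of laminin receptors were not called, *Itga6* at 1.43 (SE 0.84) and *Itgb1* at 0.42 (SE 0.11, adjusted P = 0.107), nor were *Dag1*, dystroglycan, at 1.07 (SE 1.00) and *Bcam*, a laminin alpha 5 receptor, at 0.55 (SE 1.10). The edgeR quasi-likelihood test, DESeq2 and limma-trend called 0 of the 20 receptor genes, and the fixed pool block 0 of 19. Against control, 3 receptor genes were called in met, 2 higher and 1 lower (0.511% of all genes were called lower). *Itgb1* rose in met by 1.10 (SE 0.04, adjusted P = 4.1e-15) and in non-met by 0.68 (SE 0.11, adjusted P = 0.00163, the 1 receptor gene called there). *Mcam* rose in met by 2.65 (SE 0.54, adjusted P = 0.00938). *Kdr*, a receptor of vascular endothelial growth factor, was called lower at -0.48 (SE 0.06, adjusted P = 2.1e-05, voomLmFit), although its unweighted mean was 10.68 log2 CPM in met and 10.60 in control. The edgeR quasi-likelihood test, DESeq2 and limma-trend each called 1 of the 20 in met against control, *Mcam*, and DESeq2 called it in non-met against control.

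None of 23 tested genes for synthesis and remodelling of heparan sulphate, the sugar chains that perlecan and collagen XVIII carry, was called in any of the 3 comparisons by voomLmFit. At an unadjusted P under 0.05 there were 3 in met against non-met (1 higher, 7.24% of all genes in either direction), 2 in met against control (0 higher, 14.1%) and 5 in non-met against control (2 higher, 17.0%), and of the edgeR quasi-likelihood test, DESeq2 and limma-trend only DESeq2 called 1, *Sulf1*, a heparan sulphate endosulphatase, lower in met than in non-met. *Sulf1* had no reads in met, and averaged 2.74 ± 3.89 log2 CPM in non-met (SD, n = 6). Of 28 genes for collagen folding and matrix secretion, voomLmFit, the edgeR quasi-likelihood test, DESeq2 and limma-trend each called 0 in met against non-met, with 3 at an unadjusted P under 0.05 in voomLmFit, all higher in met. In met against control voomLmFit called 1 of these 28 higher, *Pdia3*, a disulphide isomerase (0.83, SE 0.10, adjusted P = 1.1e-05), and 1 lower, *Loxl1*, a lysyl oxidase (adjusted P = 0.00452). In non-met against control it called 2 lower (0.452% of all genes), *Loxl1* (adjusted P = 0.0120) and *Lox*, the lysyl oxidase that cross-links fibrillar collagen (adjusted P = 0.0117). Mean levels in control, non-met and met were 6.57, 0.15 and -1.48 log2 CPM for *Loxl1*, of which no met library held a read, and 6.86, -0.50 and 1.48 for *Lox*. The edgeR quasi-likelihood test, DESeq2 and limma-trend called 0 of the 28 in both comparisons with control. Of 20 proteases known to cleave these components, *Ctsb* (0.84, SE 0.06, adjusted P = 7.8e-10, voomLmFit) and *Ctsl* (1.22, SE 0.26, adjusted P = 0.0300), lysosomal cathepsins, were called higher in met. Cathepsin L can release endostatin. Their unweighted means hardly differed between the groups, at 11.35 ± 0.45 against 11.27 ± 0.50 log2 CPM for *Ctsb* and 10.51 ± 0.87 against 10.45 ± 0.88 for *Ctsl* (SD, 3 met and 6 non-met libraries). In that list the edgeR quasi-likelihood test and limma-trend called 0 genes, and DESeq2 called 1, *Plg*, plasminogen, lower in met. No met or control library held a read of *Plg*, which averaged 0.70 ± 3.40 log2 CPM in non-met (SD, n = 6). With the fixed pool block both cathepsins turned sign and were called lower in met, *Ctsb* at -0.63 (adjusted P = 4.2e-05, voomLmFit) and *Ctsl* at -1.55 (adjusted P = 1.7e-12), as was *Adamts5* at -1.14 (adjusted P = 0.00772), 3 of 16 genes tested. Of all 9436 genes in that fit 24 were called lower. Against control, 4 of the 20 were called higher in met, *Ctsb* (1.53, SE 0.02), *Ctsl* (1.35, SE 0.15), *Adamts1* (0.70, SE 0.12, adjusted P = 0.000847) and *Adamts5* (1.12, SE 0.13, adjusted P = 9.2e-06), of which both *Adamts* genes encode metalloproteinases that cleave proteoglycans. In non-met 2 were called higher than in control, *Ctsb* (0.69, SE 0.06, adjusted P = 9.0e-08) and *Adamts5* (1.40, SE 0.10, adjusted P = 2.7e-09). The edgeR quasi-likelihood test and limma-trend called 0 of the 20 in both. DESeq2 called *Adamts4* higher in met, and *Ctsb* and *Plg* higher in non-met, *Plg* against controls without reads.

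Set beside the 18 endothelial markers, whose mean log2 level was 0.49 higher in met than in non-met, 8 of the 10 genes lay above that difference, by a median of 0.73 over the 10. *Lama5* (-0.14) and *Nid1* (-0.10) lay below it. Against control the markers were 0.69 higher in met, 7 of the 10 genes lay above that difference by a median of 0.33 over the 10, and *Col18a1* exceeded them by 3.50, *Col15a1* by 1.72, *Nid2* by 1.69 and *Hspg2* by 0.60, while *Lamb2* (-0.52), *Nid1* (-0.24) and *Lama5* (-0.06) lay below. Between non-met and control 5 of the 10 lay above the difference of the markers (0.20), with a median of -0.03. *Pecam1*, which encodes CD31 and was used for the sort, had mean levels of 10.11, 10.68 and 11.38 log2 CPM in control, non-met and met, and *Emcn*, the other sort marker, 9.22, 9.60 and 10.01.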

How the data were processed

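CD31hi EMCNhi endothelial RNA was sequenced after SMART-Seq v4 amplification. The authors used Rsubread (mm10) for alignment and featureCounts for counting, and deposited raw counts per Entrez gene, not normalised, with the exon length of each gene. One sample of low mapping was removed by the authors. Symbols came from RefSeq (25275 rows) and GENCODE (18). Rows with no name (1886), ribosomal RNA (36) and predicted genes (1794) were left out, with 1.95% to 15.8% of the counts of a library.

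Counts were scaled by TMM. voomLmFit with sample weights (edgeR 4.0.16, limma 3.58.1, R 4.3.3), the study's test, was fitted to the 3 groups after filterByExpr (minimum count 10, total 15), with Benjamini-Hochberg adjustment over all 11948 genes and a threshold of 0.05. Levels are log2 CPM with a prior count of 2. Single values were compared by exact two-sided permutation. Alternatives were DESeq2 1.42.0, the edgeR quasi-likelihood test, limma-trend, other scalings and filters, pool blocks, 2 groups only, summed libraries, each library left out and a term for 2 library sets (control 1 and non-met 1, lowest in epithelial markers, against the rest). The scripts were tested on simulated data.

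By the labels, met and non-met libraries of a pool come from the same mice. Spearman correlations of deviations from group means between met and non-met libraries of 1 pool were -0.02 to 0.02 across genes. The genes and lists were chosen with earlier results of these data known. Named genes are the 10 members, *Col4a1*, *Col4a2*, 4 laminin receptor genes, genes called in the lists between met and non-met, *Pecam1*, *Emcn* and the 5 most similar genes. *Bglap*, *Ly6g*, *Kdr*, *Pdia3*, *Lox*, *Loxl1*, *Sparc*, *Adamts1*, *Adamts4*, *Adamts5*, *Col4a4*, *Dcn*, *Fn1*, *Sulf1*, *Plg* and the genes sharing exon bases were named after their values or annotation were seen.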

Additional observations from a re-analysis of the deposited data

How the results depend on the processing

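Of 27 alternatives, *Hspg2* remained called between met and non-met in 21 and *Col18a1* was called in 7, and against control they were called in 19 and 17 of 25. The number of members called in met against non-met (1) was 0 with the edgeR quasi-likelihood test, DESeq2, limma-trend, mouse pool as a fixed replicate block, the term for 2 library sets, and without non-met 1 and non-met 4 together (chosen after seeing the data), and 2 with no sample weights, library size scaling or no low-count filter. Leaving out 1 library each gave 1 to 3. In met against control (2) it was 1 with the first 3 tests, with library size or RLE scaling and with predicted and ribosomal genes kept, 5 with no sample weights, 4 with no filter or only the 2 groups, and 0 with the library-set term, and 1 to 5 with 1 library left out (1 without control 1, 5 without control 2). In non-met against control (0) it was 1 with edgeR or DESeq2, and 0 to 1 with 1 library left out. The cause was not tested.

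The median fold change of the 10 in met against control was 0.69 to 1.43 with 1 library left out (1.43 without control 1). In non-met against control it was -0.05 with library size scaling, which moved the median of all genes from -0.33 to -0.54, and -0.32 to 0.79 with 1 library left out (-0.32 without non-met 2, 0.79 without control 1). In met against non-met the fixed pool block, the only setting to turn a sign in the fits, put *Lama5* at -0.22 and *Nid1* at -0.30, and the mean difference of *Lama5* within pools was -0.12. With 1 library left out, fold changes ran from 0.36 (without non-met 1) to 1.43 (without non-met 2) for *Hspg2*, 0.35 (without non-met 1) to 0.89 for *Lama5*, 0.11 (without met 3) to 0.73 for *Nid1*, 0.22 (without met 3) to 1.03 (without non-met 2) for *Lamc1*, 0.36 (without non-met 3) to 1.19 (without non-met 2) for *Lamb1* and 0.44 (without met 3) to 1.21 (without non-met 2) for *Col15a1*, and *Lama4*, *Lamb2*, *Nid2* and *Col18a1* moved by less than 1.5 times. Among the 10 genes the fixed block changed no call but that of *Hspg2*.

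In non-met against control these fold changes turned sign: *Lamb1* to 0.08 (edgeR), 0.19 (DESeq2), 0.02 (summed libraries) and 0.15 (without non-met 1 and 4), *Nid1* to 0.04 (edgeR), 0.11 (DESeq2) and 0.06 (limma-trend), *Lama5* to -0.14 (no weights) and -0.15 (library size scaling), and *Lamb2* to 0.04 and *Hspg2* to -0.01 (library-set term). With library size scaling the difference of means was -0.19 for *Lamc1* and -0.14 for *Nid1*, and for *Lamb2* in met against control -0.01. Without control 1 and without control 2, *Nid2* in met against control (2.19) was 3.32 and 1.40. In the same comparison *Hspg2* (0.78) was at 1.96, *Lama4* at 1.25, *Lama5* at 1.29, *Lamb1* at 1.11 and *Lamc1* at 1.28 without control 1, and without met 3 *Lama5* was at 0.41 and *Lamc1* at 0.44. With 1 library left out, fold changes in non-met against control ran from -0.18 to 0.56 (*Lama5*), -0.65 to 0.43 (*Lamb1*), -0.21 to 0.62 (*Lamc1*), -0.44 to 0.96 (*Nid1*) and -0.65 to 1.44 (*Hspg2*), and in met against control from -0.10 to 0.49 (*Lamb2*) and -0.18 to 1.57 (*Nid1*). Differences of means ran from -0.06 to 0.61 (*Lama5*), -0.73 to 0.21 (*Lamb1*), -0.23 to 0.26 (*Lamc1*), -0.57 to 0.69 (*Nid1*) and -0.22 to 0.93 (*Hspg2*) in the former, and -0.03 to 0.40 (*Lamb2*) and -0.18 to 1.08 (*Nid1*) in the latter.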
